A study of Mus musculus with 4 samples.

Results

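Genes of extracellular Wnt signalling were examined in the mouse mammary tumour line 4TO7, of BALB/cfC3H background. The members were the Wnt ligands, the Frizzled and Ror receptors, the co-receptors Lrp5 and Lrp6, the secreted antagonists of the Sfrp and Dkk families with Wif1, and the feedback and nuclear genes Axin2, Nkd1, Lef1 and Tcf7. They were taken by the gene symbol printed in the array files, with 1 probe per gene, the brightest by mean intensity over both channels and all arrays. This gave 46 of the 27673 genes on the array. Notum, which the rule also names, is carried by the array under an older clone name and is described apart. The control cells stably carried the retroviral vector pMSCV-puro, and the other cells carried pMSCV with the microRNA cluster miR-23b/27b/24, so both groups hold the vector backbone and differ in the insert. Each group had 2 arrays, called transfection replicates by the series. Nothing in the labels says that they came from separate clones or cultures, so p-values measure the spread between these samples alone. On every array RNA of the cells (Cy5) was hybridised against Universal Mouse Reference RNA (Cy3), a mix of 11 mouse cell lines.

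Wnt proteins are lipid-modified secreted ligands. They bind Frizzled receptors together with Lrp5 or Lrp6 and so stabilise beta-catenin, which acts with the transcription factors Lef1 and Tcf7 on target genes, or they act through Frizzled and Ror receptors without beta-catenin. Sfrp proteins and Wif1 bind the ligands, Dkk proteins such as Dkk1 occupy the co-receptors, and Notum removes the lipid from the ligand. In the mammary gland Wnt signalling supports stem cells and branching, and Wnt1 is the gene at which insertion of mouse mammary tumour virus was linked to tumours.

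The insert encodes 3 microRNAs, of which the mature strands of miR-27b and miR-24 are shown because they define the treated group. Sequences are from RefSeq (GRCm38.p6), and capitals mark the seed, bases 2 to 8, by which a microRNA pairs with its targets.
mmu-miR-27b-3p: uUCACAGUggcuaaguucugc
mmu-miR-24-3p: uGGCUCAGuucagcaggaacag
They lie on the plus strand of chromosome 13, from 63300760 to 63300780 and from 63301251 to 63301272, and their seeds differ. The array does not measure mature microRNAs, so the level of the cluster was not checked here.

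Each array read 41174 gene probes. The scanner software called 69.8% to 74.8% of them well above background in Cy5, meaning that the spot exceeds its background. A gene was tested where its probe met that call on both arrays of at least 1 group, which held for 20462 genes. Values are log2 ratios of cells over reference, and a log2 fold change is the mean of the miR-23b/27b/24 arrays minus that of the vector arrays. Over all genes, which do not count as replicates, the correlation of the log2 ratios was 0.887 for the pair of vector arrays and 0.952 for the miR-23b/27b/24 pair. Precision is limited by how few arrays there are, and no permutation test of 2 arrays against 2 can give a p below 0.333.

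The ligand Wnt7a fell 4.09-fold in the miR-23b/27b/24 cells, while the ligands Wnt6 and Wnt10b and the receptor Ror1 rose. Of the 46 members 34 were tested, and these 4 passed a limma adjusted p of 0.05, 3 higher and 1 lower. That is 11.8% of the members tested, beside 9.45% of all genes tested, so the count stood near the background. In single directions 4.78% of all genes were higher and 4.66% lower. A log2 difference of at least 1 in size with no overlap between the groups was seen for 7 of 34 members (20.6%), beside 8.15% of all genes tested. The groups did not overlap for 21 of 34 members (61.8%), beside 59.8%. Ror1 is in each of these member counts, although it was tested only through the miR-23b/27b/24 arrays. Its probe was not well above background in Cy5 on either vector array. The median log2 fold change of the members tested was -0.02, and that of all genes -0.03. The count rested on single arrays, and so did that over all genes. Without either miR-23b/27b/24 array fewer members were called, and fewer of all genes. Without either vector array more of both were called. With every local background as measured the member count was 2, beside 3.11% of all genes tested. Where both channels had to be well above background on all arrays, which leaves Ror1 out, 3 of 31 members were called. That stood beside 9.19% of all genes tested.

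**Figure D1:**
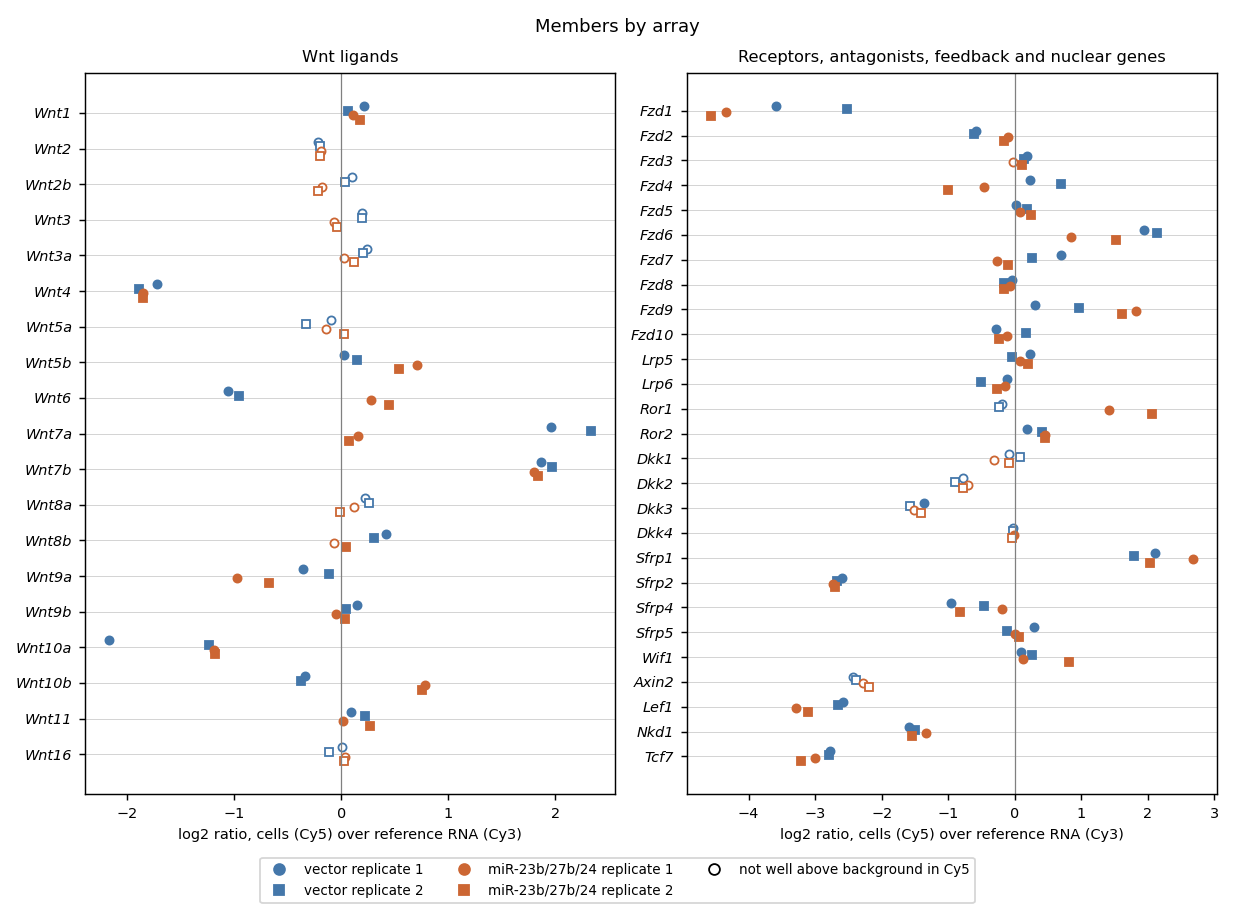
Log2 ratio of cells (Cy5) over reference RNA (Cy3) for the 46 members, with 1 point per array and open symbols where the probe was not well above background in Cy5. The vector and miR-23b/27b/24 arrays lie apart for Wnt6, Wnt7a, Wnt10b and Ror1, and by less than 1 in mean log2 ratio for all others but Fzd1, Fzd4 and Fzd9.

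**Figure D2:**
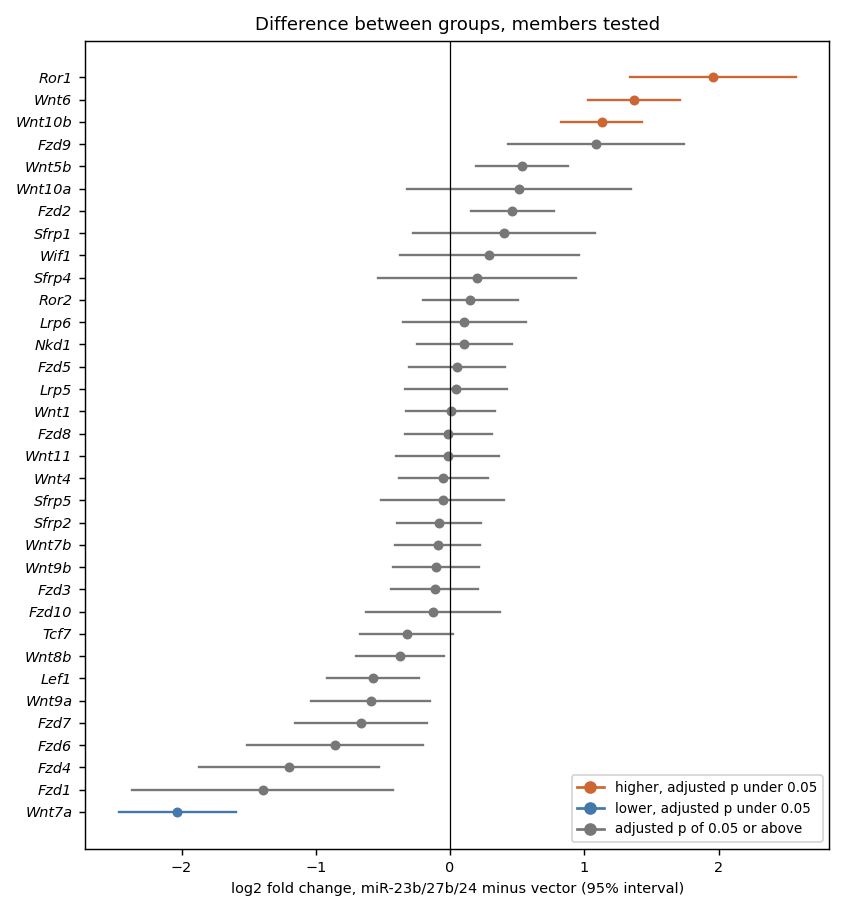
Log2 fold change, miR-23b/27b/24 minus vector, with its 95% interval from limma for the 34 members tested (2 arrays per group). The 4 members with an adjusted p under 0.05 are coloured, Ror1, Wnt6 and Wnt10b to the right of 0 and Wnt7a to the left. The interval of Ror1 rests on vector values not above background.

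Among the ligands, Wnt7a showed the largest difference. This ligand acts in limb patterning and in the female reproductive tract. Its log2 ratios were 1.96 and 2.33 on the vector arrays, and 0.16 and 0.07 on the miR-23b/27b/24 arrays. The vector cells were thus well above the reference and the miR-23b/27b/24 cells close to it, with no overlap. On the miR-23b/27b/24 arrays the log2 Cy5 signals of Wnt7a were 6.69 and 6.58. The lowest signals called well above background there were 6.37 and 6.26, so those ratios were read near background and the size of the fall is uncertain. The log2 fold change was -2.03 ± 0.17 (SE, n = 2 a group, limma adjusted p = 0.0072), a 4.09-fold fall. With the scanner software's log ratio it was -2.90 (adjusted p = 0.00282). Leaving out miR-23b/27b/24 replicate 1 gave -2.07 (adjusted p = 0.0648), and leaving out replicate 2 gave -1.99 (adjusted p = 0.0665). Local backgrounds used as measured gave -0.95 (adjusted p = 0.313). The probe lies on chromosome 6 from 91447162 to 91447221 on the minus strand. This and all probe positions below are in mm7, the build that the files name. No gene model of that build was used here, so exons and UTRs are not stated.

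Wnt6, a ligand of epithelia, moved the other way. Wnt6 stood at log2 ratios of -1.06 and -0.96 with the vector, and 0.28 and 0.44 on the miR-23b/27b/24 arrays. Both vector arrays lay below the reference and both others above it. The log2 fold change was 1.37 ± 0.13 (SE, n = 2 a group, limma adjusted p = 0.00964), a 2.58-fold rise. Wnt6 has another probe of almost the same intensity, with log2 ratios of -1.65 and 0.12 for vector cells and 0.49 and 0.61 for the others. Its difference of 1.32 was close to that of the chosen probe, but its vector arrays lay far apart, and with it in place of the chosen probe Wnt6 had an adjusted p of 0.227 in limma. With the mean of both probes the adjusted p was 0.0691. Leaving out miR-23b/27b/24 replicate 1 or 2 gave the chosen probe an adjusted p of 0.0790 or 0.0888, and local backgrounds used as measured one of 0.0934. The chosen probe lies on chromosome 1 from 75024467 to 75024532.

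Wnt10b is a ligand that in the mammary gland drives growth when overexpressed. The log2 ratios of Wnt10b were -0.34 and -0.38 on the vector arrays, and 0.78 and 0.75 on the miR-23b/27b/24 arrays. Arrays of a group lay close together and the groups did not overlap. On both vector arrays the log2 Cy5 signal of Wnt10b was 6.69. The lowest signals called well above background there were 6.17 and 6.22. The log2 fold change was 1.13 ± 0.12 (SE, n = 2 a group, limma adjusted p = 0.0116), a 2.19-fold rise. With the scanner software's log ratio it was 2.08 (adjusted p = 0.00428). Leaving out miR-23b/27b/24 replicate 1 gave 1.11 (adjusted p = 0.121), and leaving out replicate 2 gave 1.15 (adjusted p = 0.105). Local backgrounds used as measured gave 0.90 (adjusted p = 0.0543). The probe lies on chromosome 15 from 98757734 to 98757793 on the minus strand.

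The other 9 ligands tested were not called. They were Wnt1, Wnt4, Wnt5b, Wnt7b, Wnt8b, Wnt9a, Wnt9b, Wnt10a and Wnt11, with log2 fold changes from -0.59 (Wnt9a, limma adjusted p = 0.102) to 0.54 (Wnt5b, adjusted p = 0.0753). Wnt7b, the closest relative of Wnt7a, stood at 1.86 and 1.97 in log2 ratio with the vector and at 1.80 and 1.84 with the cluster. It lay above the reference on all arrays, with a log2 fold change of -0.09 ± 0.12 (SE, n = 2 a group, 95% interval -0.41 to 0.22, limma adjusted p = 0.684). Without an overlap between groups for either, Wnt7a differed by 2.03 and Wnt7b by 0.09 in size on the log2 scale. That difference between the genes was not tested. Wnt10a stood at -2.17 and -1.24 in log2 ratio with the vector and at -1.19 and -1.18 with the cluster. Vector replicate 1 stood apart, and the log2 fold change of 0.51 (95% interval -0.32 to 1.35) was 0.05 without vector replicate 1 and 0.98 without vector replicate 2 (limma adjusted p = 0.0168). Wnt1, the mammary oncogene named above, had log2 ratios between 0.06 and 0.21 on the 4 arrays and a log2 fold change of 0.01 ± 0.13 (SE, n = 2 a group, limma adjusted p = 0.982).

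A further 7 ligands, Wnt2, Wnt2b, Wnt3, Wnt3a, Wnt5a, Wnt8a and Wnt16, were not well above background in Cy5 on any array. Of these, Wnt2b, Wnt3, Wnt3a, Wnt8a and Wnt16 were not well above background in the reference on any array either, so their ratios have no measured side. They were not tested. Wnt5a, a ligand that signals through Ror receptors, was well above background in the reference on 2 arrays.

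Several ligand genes are neighbours, and neighbours were compared as a description. The probes of Wnt6 and Wnt10a lie 19.2 kb apart on chromosome 1 on the same strand, with log2 fold changes of 1.37 and 0.51. Those of Wnt10b and Wnt1 lie 20.7 kb apart on chromosome 15 on opposite strands, with 1.13 and 0.01. On chromosome 11, Wnt3a and Wnt9a lie 85.0 kb apart, with -0.15 and -0.59, and Wnt9b and Wnt3 88.5 kb apart, with -0.10 and -0.25, although Wnt3 and Wnt3a were not well above background in Cy5. In each of the pairs that hold Wnt6 and Wnt10b, the neighbour was not called.

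Receptors followed no single direction. All 10 Frizzled genes were tested, 3 with a positive and 7 with a negative log2 fold change (median -0.12). None of them was called by limma. An unadjusted p under 0.05 was found for 6 of the 10, for 14 of the 34 members tested (41.2%) and for 27.7% of all genes tested. Fzd4, a receptor for Norrin as well as Wnt ligands, came closest to the threshold. Its log2 ratios were 0.23 and 0.69 on the vector arrays, and -0.47 and -1.01 on the miR-23b/27b/24 arrays. The groups did not overlap, and the log2 fold change was -1.20 ± 0.26 (SE, n = 2 a group, limma adjusted p = 0.0566). It lay between -1.47 and -0.93 with 1 array left out, and was -1.08 with local backgrounds used as measured (limma adjusted p = 0.118). Fzd1 had log2 ratios of -3.59 and -2.52 with the vector, and -4.33 and -4.57 with the cluster. It lay far below the reference on all arrays, lowest on the miR-23b/27b/24 arrays. Its log2 fold change was -1.40 ± 0.37 (SE, n = 2 a group, limma adjusted p = 0.087). It was -1.93 without vector replicate 1 and -0.86 without vector replicate 2. Local backgrounds used as measured gave -2.34 (adjusted p = 0.0305) and the scanner software's log ratio -2.39 (adjusted p = 0.0435). Median centring gave -1.315 (adjusted p = 0.122). Fzd9 differed the other way. Its log2 ratios were 0.30 and 0.96 on the vector arrays and 1.83 and 1.61 on the others, with a log2 fold change of 1.09 ± 0.25 (SE, n = 2 a group, limma adjusted p = 0.0658). Without vector replicate 1 or 2 it was 0.76 or 1.42. Over 16 alternatives Fzd1 stayed uncalled in 11, Fzd4 in 15 and Fzd9 in 14.

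Fzd6, a receptor of planar polarity, stood at 1.94 and 2.14 in log2 ratio with the vector and at 0.85 and 1.52 with the cluster. All arrays lay above the reference and the groups did not overlap, with a log2 fold change of -0.86 (95% interval -1.51 to -0.20, limma adjusted p = 0.106). Fzd2 stood at -0.58 and -0.62 in log2 ratio with the vector and at -0.10 and -0.17 with the cluster. Its log2 fold change was 0.47 (95% interval 0.16 to 0.77, limma adjusted p = 0.0797), and its other probe gave 0.35. Fzd7, a receptor of mammary stem-like cells, had -0.66 (adjusted p = 0.100), while its other probe, also well above background, gave 0.29. The Frizzled genes Fzd3, Fzd5, Fzd8 and Fzd10 had log2 fold changes between -0.13 and 0.05.

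The co-receptors Lrp5 and Lrp6, without which Frizzled does not signal to beta-catenin, were not called. Lrp5 stood at 0.22 and -0.03 in log2 ratio with the vector and at 0.08 and 0.20 with the cluster. The groups overlapped, with a log2 fold change of 0.05 (95% interval -0.34 to 0.43, limma adjusted p = 0.882) that was -0.083 without vector replicate 2 and 0.17 without vector replicate 1. Lrp6 had a log2 fold change of 0.11 (95% interval -0.35 to 0.57). A probe under an older name of Lrp6, C030016K15Rik, was well above background on all 4 arrays and gave 0.41 (95% interval 0.06 to 0.75, limma adjusted p = 0.136), with no overlap between the groups.

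Ror1, a tyrosine kinase-like receptor best known as a Wnt5a receptor of embryonic and tumour cells, rose. The log2 ratios of Ror1 were -0.19 and -0.23 on the vector arrays, and 1.42 and 2.07 on the miR-23b/27b/24 arrays. The probe was well above background in Cy5 on both miR-23b/27b/24 arrays and on neither vector array. The vector side is therefore only a limit, taken as the lowest Cy5 signal called well above background on each array. Some probes not so called read higher, so the limit is not a strict bound. Set against it, Ror1 was 3.52-fold higher in the miR-23b/27b/24 cells by the mean Cy5 signal. That sets Cy5 against Cy5 between arrays without the reference channel, so differences between arrays and spots remain in it. Its limma adjusted p, which rests on vector values not above background, was 0.0169, and 0.0613 without miR-23b/27b/24 replicate 2. The other Ror1 probe, detected on the same arrays, differed by only 0.48 in log2 ratio, and the mean of both by 1.22, so the size of the rise depends on the probe. The measured difference was 4.78 with the scanner software's log ratio, and 1.78 with local backgrounds used as measured (limma adjusted p = 0.0492). The chosen probe lies on chromosome 4 from 99820118 to 99820177. Its relative Ror2 stood at 0.19 and 0.41 in log2 ratio with the vector and at 0.45 and 0.45 with the cluster, and a log2 fold change of 0.15 (95% interval -0.20 to 0.51, limma adjusted p = 0.539).

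The 250 bases before the annotated start of the 4 called members are shown, since these genes moved. The annotated start comes just after the window, and whether 4TO7 cells use it was not measured. They are from RefSeq (GRCm38.p6), in the gene's 5′ to 3′ direction. Capitals mark matches on either strand, and adjacent matches run together. The first motif is CTTTGA, the core letters bound by Lef1 and Tcf7. The second is the E-box CACCTG, letters that Snail repressors bind. The third is the GC box GGGCGG.
Wnt7a: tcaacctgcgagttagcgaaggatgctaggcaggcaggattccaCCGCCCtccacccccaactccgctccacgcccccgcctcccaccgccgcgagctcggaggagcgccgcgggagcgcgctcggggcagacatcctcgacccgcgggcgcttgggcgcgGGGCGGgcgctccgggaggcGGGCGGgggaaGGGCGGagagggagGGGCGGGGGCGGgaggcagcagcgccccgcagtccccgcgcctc
Wnt6: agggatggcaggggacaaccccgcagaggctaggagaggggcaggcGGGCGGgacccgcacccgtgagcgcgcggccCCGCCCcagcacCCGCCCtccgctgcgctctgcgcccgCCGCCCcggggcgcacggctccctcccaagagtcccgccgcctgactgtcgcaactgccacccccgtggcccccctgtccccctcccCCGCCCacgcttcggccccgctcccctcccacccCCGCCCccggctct
Wnt10b: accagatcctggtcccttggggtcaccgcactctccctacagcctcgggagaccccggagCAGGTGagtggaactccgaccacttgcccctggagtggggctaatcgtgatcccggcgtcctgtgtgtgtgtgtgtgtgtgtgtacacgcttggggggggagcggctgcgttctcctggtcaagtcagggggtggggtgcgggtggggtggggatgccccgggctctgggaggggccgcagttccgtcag
Ror1: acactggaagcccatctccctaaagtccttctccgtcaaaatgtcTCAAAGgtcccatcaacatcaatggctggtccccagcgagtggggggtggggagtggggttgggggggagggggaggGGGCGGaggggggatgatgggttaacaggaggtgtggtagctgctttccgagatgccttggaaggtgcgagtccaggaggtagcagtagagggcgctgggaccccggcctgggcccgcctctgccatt
The windows are chr6:91411354-91411603 on the minus strand, chr1:74771642-74771891 on the plus strand, chr15:98778151-98778400 on the minus strand and chr4:100095541-100095790 on the plus strand. Ror1 held 1 Lef1/Tcf7 core, and the windows of Wnt7a, Wnt6 and Wnt10b held 0. Wnt10b held 1 E-box. The GC box had 6 matches in Wnt7a, 6 in Wnt6, 1 in Ror1 and 0 in Wnt10b. Of 32851 windows of the same length before RefSeq starts, 13.8% held the Lef1/Tcf7 core, 17.2% the E-box and 32.7% the GC box. For 32 of the 46 members, with 39 starts, a window was at hand, and of the 39 windows 6 held the Lef1/Tcf7 core, 11 the E-box and 29 the GC box. G and C made up 77.6% of the bases for Wnt7a, 79.6% for Wnt6, 66.8% for Wnt10b and 62.4% for Ror1, beside a median of 52.4% over all windows. The letters describe the windows alone.

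Of the 9 secreted antagonists, 5 were tested and 0 passed in limma, with 0 at an unadjusted p under 0.05. Sfrp1, which binds Wnt ligands and is silenced in many breast tumours, stood at 2.11 and 1.79 in log2 ratio with the vector and at 2.68 and 2.03 with the cluster. It lay well above the reference on all arrays and the groups overlapped. The log2 fold change was 0.40 (95% interval -0.27 to 1.08, limma adjusted p = 0.389). Leaving out miR-23b/27b/24 replicate 1 gave 0.08, and leaving out replicate 2 gave 0.73. Sfrp2 lay below the reference on all arrays, between -2.73 and -2.59, with a log2 fold change of -0.08. Sfrp4, Sfrp5 and Wif1 had log2 fold changes of 0.20, -0.05 and 0.29, and each had groups that overlapped. Of the Dkk family, Dkk1 and Dkk2 were not well above background in Cy5 on any array. Dkk3 and Dkk4 were well above it on 1 array each, so no Dkk gene was tested. Dkk2 and Dkk3 were well above background in the reference on all 4 arrays, with log2 ratios between -0.90 and -0.70 and between -1.58 and -1.37.

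Notum, the enzyme that inactivates Wnt ligands and is itself a target of the pathway, stands on the array under the clone name 5730593N15Rik, which RefSeq's synonyms and accessions give to Notum. It was not among the members by symbol, and was added because the rule names it. Its brighter probe had log2 ratios of 1.16 and 0.89 with the vector, and 2.76 and 2.86 with the cluster. All arrays lay above the reference, and the miR-23b/27b/24 arrays were apart from the vector arrays. Notum was higher by 1.78 ± 0.15 in log2 (SE, n = 2 a group, limma adjusted p = 0.00722), a 3.44-fold difference. Its other probe gave 1.23. The log2 fold change lay between 1.51 and 2.40 over 16 alternatives, of which 14 passed. The 2 that missed were those without miR-23b/27b/24 replicate 1 and without replicate 2 (adjusted p of 0.0676 and 0.0688).

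The feedback genes Axin2 and Nkd1 and the nuclear factors Lef1 and Tcf7 lay below the reference on all arrays. Axin2, a negative regulator that beta-catenin induces in most cells, was not well above background in Cy5 on any array and was so in the reference on all 4. Its log2 ratios were -2.43 and -2.39 on the vector arrays and -2.29 and -2.19 on the others, and it was not tested. Lef1 had log2 ratios of -2.59 and -2.66 with the vector, and -3.28 and -3.11 with the cluster. The groups did not overlap, with a log2 fold change of -0.57 (95% interval -0.91 to -0.23, limma adjusted p = 0.0637), and its second probe gave -0.17. Tcf7 had a log2 fold change of -0.32 (95% interval -0.67 to 0.03, limma adjusted p = 0.206), with ratios between -3.21 and -2.78. Nkd1, which restrains Dishevelled, had ratios between -1.58 and -1.33 and a log2 fold change of 0.11. None of these 4 genes was called.

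Probes of the same gene were set against each other where the array has several. Of 16 members with more than 1 probe, 9 had at least 2 that passed the filter, and in 8 of these the differences had the same sign. Fzd7 was the exception. Probes under older names gave other values for Fzd3 and Fzd5. The probe D930050A07Rik, a synonym of Fzd3 in RefSeq, stood at 0.06 and -0.01 in log2 ratio with the vector and at -1.57 and -1.51 with the cluster, where it was not well above background. With the miR-23b/27b/24 arrays raised to the Cy5 limit described for Ror1 where below it, this probe was 2.80-fold lower. Its limma adjusted p of 0.00619 rests on the values not above background. By the Fzd3 symbol the 2 probes gave -0.11 and -0.49. The probe AI427138, a synonym of Fzd5, gave 1.15 (limma adjusted p = 0.0157), and the Fzd5 symbol's probes gave 0.05 and -0.12, the latter by a probe not well above background on any array. Which transcripts these probes read was not tested. With such probes joined to the members, 7 of 35 were called, the 4 above with Notum and Fzd5 higher and Fzd3 lower, beside 9.45% of all genes tested. Ror1 and Fzd3 are counted there although 1 of their groups was not above background.

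**Figure D3:**
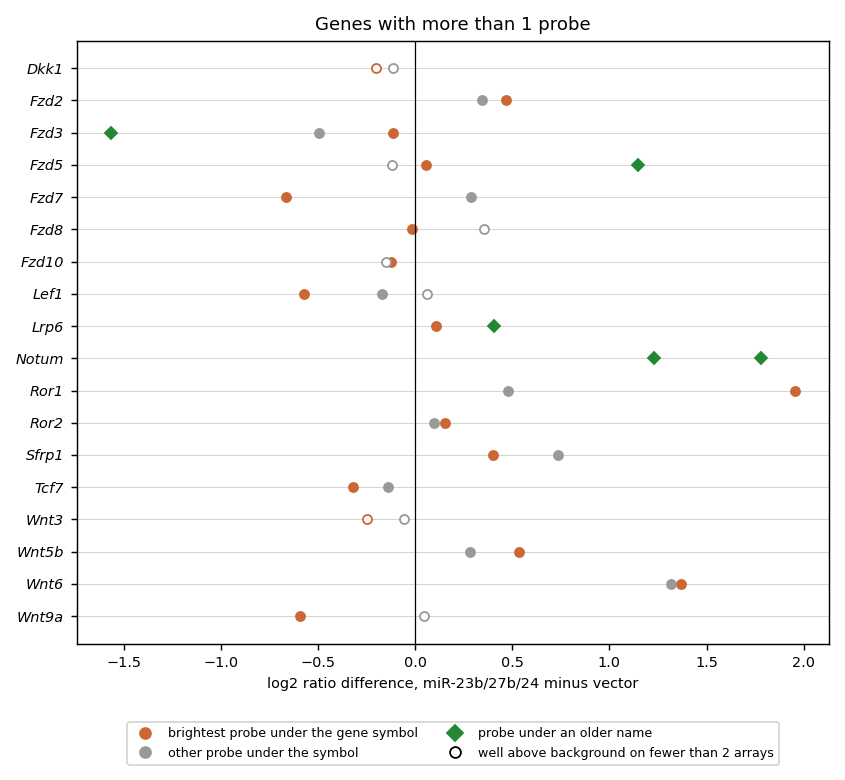
Difference in log2 ratio, miR-23b/27b/24 minus vector, for each probe of genes with more than 1 probe or a probe under an older name. Both Wnt6 probes lie near 1.3, the Ror1 probes at 1.96 and 0.48, and the probes under older names of Fzd3 and Fzd5 lie away from those under the symbol.

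**Figure D4:**
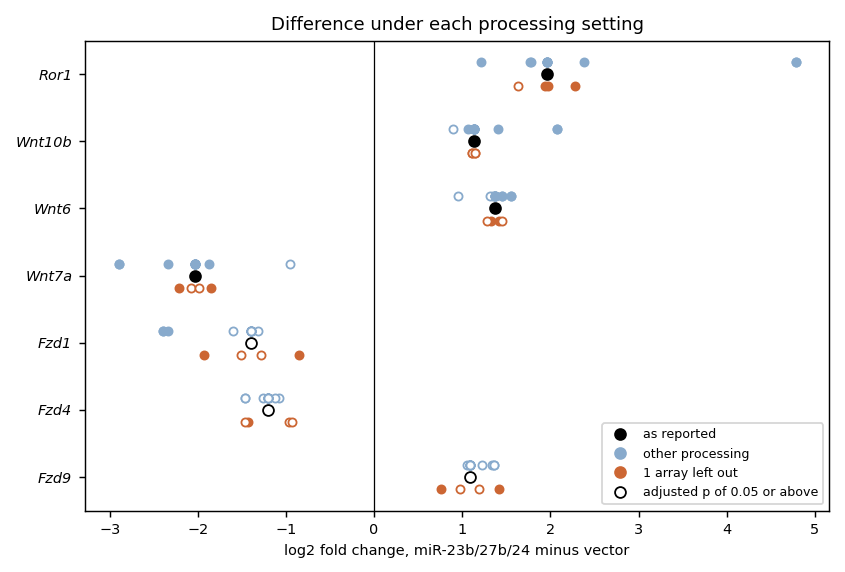
Log2 fold change of the 4 called members and of Fzd1, Fzd4 and Fzd9 as reported, under other processing, and with 1 array left out; open circles have an adjusted p of 0.05 or above. All points of a gene stay on 1 side of 0, while the calls of Wnt6, Wnt7a, Wnt10b and Ror1 are lost in some settings.

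Other genes of the pathway were compared by list, and each count stands beside 9.45% of all genes tested that were called, 4.78% higher and 4.66% lower. The first list covers secretion of the ligands and the R-spondin axis, which raises Frizzled at the surface. It also holds other extracellular and surface genes, among them Sost, Kremen1, Dkkl1, Tpbg and Gpc4. Of its 20 genes 13 were tested, with 3 called lower and 1 higher and a median log2 fold change of -0.20. Porcn, the enzyme that puts the lipid on Wnt ligands, fell by 0.72, Gpc4, a glypican, by 1.55, and Rnf43, a ubiquitin ligase that removes Frizzled, by 1.92 on the log2 scale. With median centring Porcn had -0.65 (limma adjusted p = 0.0554), while Gpc4 and Rnf43 still passed. Lgr6, an R-spondin receptor, rose by 1.25. Rnf43 had log2 ratios of 0.14 and -0.46 with the vector, and -2.03 and -2.13 with the cluster. Wls, which carries ligands to the surface, had a log2 fold change of 0.32 (limma adjusted p = 0.216). Among 27 tested genes of the cytoplasmic relay 4 were lower and 0 higher (median -0.24). They were Dact2 by -1.27, Amer1 by -1.04, Frat1 by -0.91 and Dvl1, a Dishevelled, by -0.89. Over the mean of probes Dvl1 had -0.51 (limma adjusted p = 0.207) and Dact2 -0.72 (adjusted p = 0.0308), while Amer1 and Frat1 had -1.04 each. With median centring this list held 1 call, beside 6.19% of all genes. Beta-catenin itself, Ctnnb1, had a log2 fold change of 0.07 ± 0.23 (SE, adjusted p = 0.882). Among 20 nuclear partners 1 was higher and 1 lower (median 0.26). Tle2, a corepressor, rose by 1.54. Tnik, a kinase that acts with beta-catenin, had a brightest probe not well above background on the miR-23b/27b/24 arrays. With those arrays raised to the Cy5 limit described for Ror1 where below it, Tnik was 3.42-fold lower by that probe. Over the mean of its probes Tnik differed by -0.66 in log2 (limma adjusted p = 0.0493), a smaller fall.

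Genes of planar cell polarity and other branches had 5 higher and 2 lower among 32 tested (median 0.08). Prickle2 had a brightest probe that the vector arrays did not call well above background. By that probe it was 4.21-fold higher, an estimate that rests on those vector values and is not a bound. The mean of the Prickle2 probes differed by 1.16 in log2 (limma adjusted p = 0.021). Local backgrounds used as measured gave 1.20 (adjusted p = 0.085), and both are smaller rises. Prickle1, its relative, fell by 1.76 on the log2 scale. Prickle1 had log2 ratios of 2.02 and 1.53 with the vector, and -0.07 and 0.10 with the cluster. Ankrd6 fell by 1.78 and Ppp3ca, a calcineurin subunit, rose by 1.48. Over the mean of probes Prickle1 differed by -1.02 and Ankrd6 by -0.97 (limma adjusted p of 0.0176 and 0.0171). Of 29 tested genes published as Wnt targets 3 were higher and 3 lower (median 0.08). The lower targets include Rnf43, which the secretion list also counts. Tnfrsf19, a receptor of the TNF family, had log2 ratios of -0.66 and -0.33 with the vector, and 2.12 and 3.17 with the cluster, an 8.78-fold rise (log2 3.13 ± 0.37, SE, n = 2 a group, limma adjusted p = 0.0161). It stayed past the threshold in all 16 alternatives, with log2 values between 1.98 and 3.66. Ccnd1, cyclin D1, rose by 1.84 and Myc fell by 1.59. Over the mean of probes Myc had -1.37 (limma adjusted p = 0.0556), and with local backgrounds used as measured -1.56 (adjusted p = 0.0824). Ccnd1 passed in both settings. The limma adjusted p of the other genes named from the lists as called lay between 0.00503 (Prickle2) and 0.0466 (Dvl1). These counts rested on the arrays as the member count did. Without either miR-23b/27b/24 array the 5 lists held fewer calls, as did all genes. With every local background as measured, 3.11% of all genes tested were called. The cytoplasmic relay then held 0 calls, the nuclear partners 1, secretion 2, planar cell polarity 4 and the targets 5.

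Markers of cell types were read in the same fit. Of 6 epithelial markers 4 fell (Cdh1, Epcam, Krt7 and Krt19), Krt18 had a log2 fold change of -1.40 (limma adjusted p = 0.0647) and Krt8 one of 0.30. All 6 were well above background on all arrays, with a mean log2 ratio over the list of 2.40 and 2.06 with the vector against -0.65 and -0.29 with the cluster. Of 5 mesenchymal markers 2 rose (Sparc and Acta2). Fn1 had a log2 fold change of 0.74 (limma adjusted p = 0.158) and Vim one of 0.002 (adjusted p = 0.998). Cdh2 was well above background in Cy5 on 1 array and was not tested. The list means, Cdh2 included, were -1.40 and -1.57 against -0.84 and -0.94. With the mean of its probes Acta2 had 0.15 (limma adjusted p = 0.461). Over 16 alternatives Epcam and Krt7 always passed, while Cdh1 missed in 3, Krt19 in 1, and Sparc and Acta2 in 4 each. Of 5 leukocyte markers 1 fell (Cd68), with Ptprc between -5.82 and -5.72 on all arrays, and the list means were -1.62 and -1.46 against values at or below -1.95. Of 7 endothelial and adipocyte markers, 5 were tested and none passed (limma adjusted p between 0.597 and 0.934), with list means between -0.29 and -0.14 and between -0.27 and 0.58. The part of the epithelial and mesenchymal differences in those of the Wnt genes was not tested, and fewer cells of a type cannot be told apart from less RNA per cell in such samples.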

How the data were processed

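RNA of 4TO7 cells (Cy5) and Universal Mouse Reference RNA (Cy3) was read on 4 arrays of 1 slide in 1 scan, without a dye swap. The scanner software, per the file headers Feature Extraction 9.5.3.1 of Agilent, gave mean signals and local backgrounds as intensity and a log10 ratio. The authors' deposited value table holds log2 ratios, which were the log10 ratio in log2, centred per probe: between 87.6% and 88.1% of values lay within 0.001, with column medians between -0.0172 and 0.0221 and direction Cy5 over Cy3.

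Analysis used R 4.3.3 and limma 3.58.1: outlying local backgrounds replaced by the array median, normexp with an offset of 50, loess without control spots, outlier spots left out, spots averaged. The brightest probe was chosen per gene, then filtered. Genes were named through RefSeq (GRCm38.p6) by accession for 22951 probes, symbol for 6659 and synonym for 3109, while 8455 kept the file's name; members kept the files' symbol, which RefSeq matched for 46 of 46. The test was limma's lmFit with eBayes, which had 2 residual degrees of freedom and a prior of 2.83, with Benjamini-Hochberg adjustment over 20462 genes. Members, lists and settings were chosen with earlier results of these data known. Given by array are called members, members of at least 1 in log2 size without overlap, and the 6 brightest in Cy5; from each list up to 4 called genes. The fit was tested on simulated data. Alternatives changed the background, normalization, probe rule, filter, block and arrays.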

Additional observations from a re-analysis of the deposited data

How the results depend on the processing

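The count of 4 called members was 2 with every local background as measured, between 0 and 8 with 1 array left out, and 7 with probes of older names joined, an alternative chosen after seeing the data. It lay between 3 and 5 in the other settings. Over all genes 1933 passed, 637 with every background as measured (267 higher and 370 lower), 1267 with median centring and between 212 and 4587 with 1 array left out. The 4587 came without vector replicate 1. Leaving out the miR-23b/27b/24 arrays gave 212 (replicate 1) and 233 (replicate 2). A group left with 1 array borrows its spread from the other group. The replicate number as a block left 4 members and 1769 genes called. Same-numbered arrays did not deviate together (correlation 0.0466 across genes), so the numbers were not taken as pairs. The 4 called members kept their sign in every alternative run. For Wnt7b the log2 fold change turned to 0.33 with every background as measured, and that of Lrp5 lay between -0.083 and 0.17 with 1 array left out, lowest without vector replicate 2, and was -0.014 without miR-23b/27b/24 replicate 2. None of these was called. The cause of these changes was not tested. By the scanner software's call, signal near background limits the 12 members not tested and 3 that were. The latter were Ror1 (2 arrays well above background), Fzd3 and Wnt8b (3 arrays each), and 31 of 46 were well above background on all 4. Among these 31, Wnt7a on the miR-23b/27b/24 arrays and Wnt10b on the vector arrays still lay near the lowest Cy5 signal so called.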

Other observations

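Lists of the pathway also hold genes at the edge of detection. Frzb, an Sfrp-related antagonist, and Sp5, a Wnt target in embryos, were not well above background in Cy5 on any array, and Lgr5, the R-spondin receptor of stem cells, was so on 1. Rspo1, which encodes an R-spondin, was well above background in the reference on all 4 arrays and in Cy5 on 0.

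Replicate spread among the members was like that of other genes. The median gap between replicates was 0.16 for the vector arrays and 0.15 for the miR-23b/27b/24 arrays over the 34 members tested, beside 0.19 and 0.13 over all genes tested, and the widest gap between vector arrays was 1.08, for Fzd1.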
